A study of Mus musculus with 2 samples.

Results

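The 10 genes described here encode digestive enzymes of types that the pancreas secretes: Cela1, Pnliprp1, Amy1, Amy2a5, Ctrb1, Cela2a, Cel, Prss2, Cpa1 and Pnlip. They are 10 of 43346 mouse gene rows and were followed in fetal liver of the mouse strain C57BL/6J at embryonic day 18 (E18). They were matched by symbol to the gene identifiers of the gene tables, and with them their transcripts and the splice junctions inside their spans. The choice of genes, and their split into 4 read as shared between libraries (Cela1, Pnliprp1, Amy1, Amy2a5) and 6 read as specific to a library (the rest), was chosen by measured values, the counts of these same libraries. The difference between libraries is therefore a description, and no test supports it.

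There was 1 group of 2 libraries, numbered by the labels as biological replicates 1 and 2, with no treatment, mutation or transgene. Per the labels, each came from liver pooled over littermates of either sex. Poly(A)+ RNA above 200 nt, depleted of ribosomal RNA and carrying spike-ins, was made into strand-specific libraries and read from both ends. The gene tables summed to 163766625 and 139889938 expected counts, of which mouse genes took 97.2% and 97.9%. All 8 hepatocyte genes of a fixed list, albumin among them, were present, at summed levels of 146634 and 149189 TPM (a level corrected for transcript length and for the library's total). The libraries went against the pooled-sex label: Xist, which silences an X chromosome in female cells, had 157187 and 41 counts in replicates 1 and 2, and 4 Y-linked genes together had 8 and 18351. With 1 library on each side, each ratio below has a 95% interval that covers counting error only, and no p-value is given.

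Acinar cells of the exocrine pancreas make digestive enzymes in bulk and store them in zymogen granules. Most proteases are stored as inactive precursors that are activated in the gut, while amylase and lipases act on starch and fat. The transcription factor complex PTF1, built on PTF1A and RBPJL in acinar cells, binds a pair of DNA boxes in many of these genes' promoters, an E-box and a TGGGAA-type box. Mouse Amy1 is known to have a strong promoter used in the parotid gland and a weaker one used in liver, and the Amy2a copies encode the pancreatic amylase.

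The promoters are shown first because the rest of the description turns on which genes appeared in both libraries. They were taken from RefSeq tables of the GRCm38.p6 build, which had 11 windows for the 10 members (2 for Amy1), and each covers 250 bases before a transcription start; bases that an annotated exon covers are left off. Each is written 5′ to 3′ on the gene's strand, and capitals mark TATAAA and TGGGAA (or its reverse complement). The first 3 lie before genes read as shared, the others before genes read as library-specific.
Amy1, liver-type start, chr3:113574763-113575012, minus strand: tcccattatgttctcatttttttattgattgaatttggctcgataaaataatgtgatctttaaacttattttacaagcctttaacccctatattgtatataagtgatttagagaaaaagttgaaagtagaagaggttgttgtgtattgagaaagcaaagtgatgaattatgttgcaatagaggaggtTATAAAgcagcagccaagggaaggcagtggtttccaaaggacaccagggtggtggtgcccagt
Cela1, chr15:100687922-100688170, minus strand: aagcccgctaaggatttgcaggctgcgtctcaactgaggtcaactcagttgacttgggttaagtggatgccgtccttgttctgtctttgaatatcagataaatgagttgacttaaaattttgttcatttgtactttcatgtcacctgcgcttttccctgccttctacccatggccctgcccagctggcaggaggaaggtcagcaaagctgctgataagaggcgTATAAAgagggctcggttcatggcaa
Pnliprp1, chr19:58728637-58728886, plus strand: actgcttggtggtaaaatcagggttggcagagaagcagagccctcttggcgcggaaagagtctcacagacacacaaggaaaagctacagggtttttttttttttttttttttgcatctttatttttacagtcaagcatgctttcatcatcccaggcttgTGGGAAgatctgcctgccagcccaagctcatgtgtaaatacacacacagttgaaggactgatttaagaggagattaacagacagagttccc
Ctrb1, chr8:111691011-111691260, minus strand: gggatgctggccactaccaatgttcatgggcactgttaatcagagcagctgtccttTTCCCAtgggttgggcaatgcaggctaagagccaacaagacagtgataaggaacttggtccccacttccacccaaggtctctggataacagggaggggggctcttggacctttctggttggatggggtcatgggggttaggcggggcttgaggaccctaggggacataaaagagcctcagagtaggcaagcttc
Cel, chr2:28563404-28563653, minus strand: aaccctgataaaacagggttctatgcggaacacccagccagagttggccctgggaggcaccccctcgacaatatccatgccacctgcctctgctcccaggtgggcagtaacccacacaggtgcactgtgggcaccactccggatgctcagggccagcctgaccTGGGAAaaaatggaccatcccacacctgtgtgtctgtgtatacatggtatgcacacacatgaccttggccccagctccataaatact
Prss2, chr6:41521526-41521775, plus strand: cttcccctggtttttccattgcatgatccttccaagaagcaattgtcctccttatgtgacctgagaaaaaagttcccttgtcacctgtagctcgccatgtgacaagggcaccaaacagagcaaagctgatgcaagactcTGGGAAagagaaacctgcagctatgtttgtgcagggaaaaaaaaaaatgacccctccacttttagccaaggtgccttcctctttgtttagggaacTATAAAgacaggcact

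Both strands were searched for letters only, in the whole 250-base windows. TGGGAA was found in the windows of all 6 genes read as library-specific, and in 21.6% of all 32851 RefSeq windows of this length. Among the 4 genes read as shared it was found before Pnliprp1 and before the other Amy1 start (chr3:113577751-113578000), and not in the windows of Cela1, Amy2a5 or the liver-type Amy1 start. The E-box, CANNTG, was found in 5 of the 6 library-specific windows and in 3 of the 5 shared ones, against 66.2% of all windows. In Ctrb1 an E-box began 205 bases and the TGGGAA-type box 194 bases before the start, and in Cpa1 they began 38 and 20 bases before it. The TATA box, TATAAA, was found in 2 of 6 and 3 of 5 windows (12.4% of all), in Cela1 27 bases and at the liver-type Amy1 start 63 bases before the start. The HNF1 site GTTAAT was found in 2 of 6 and 1 of 5 (6.43% of all), and the GATA site AGATAA in 1 of 6 and 1 of 5 (9.99% of all). The C/EBP palindrome was found in 0 of the 11 windows, against 0.164% of all. No match of the E-box, TGGGAA or TATAAA overlapped another of these 3 in the 11 windows. A match is a run of letters and not a measured binding site. The Cela1 window lies before the start of Cela1-201, whose first intron had 35 and 14 junction reads in replicates 1 and 2. That was 8.67% and 3.55% of the median of its other introns. Whether Cela1 RNA began at this start was not tested.

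The levels separated the members by library. Amy1 was the highest of the 10, at 50.09 TPM in replicate 1 and 48.69 in replicate 2 (49.4 ± 0.990, SD, n = 2), above 91.4% of the 17616 genes with a mean count of at least 10. Cela1, an elastase gene, followed on the mean among the shared genes, at 14.32 and 18.08 TPM (16.2 ± 2.66). Pnliprp1, which encodes a relative of pancreatic lipase, stood at 11.15 and 8.06 TPM (9.61 ± 2.18), and Amy2a5 at 10.75 and 5.48 (8.12 ± 3.73). The chymotrypsinogen gene Ctrb1 was the second highest of the 10 in replicate 1, at 35.69 TPM, and stood at 0.22 TPM in replicate 2. The elastase gene Cela2a had 7.71 and 0.05 TPM, the trypsinogen gene Prss2 3.91 and 0, the procarboxypeptidase gene Cpa1 2.03 and 0.47, and the bile salt-stimulated lipase gene Cel 1.66 and 0.00. Pnlip, which encodes the main pancreatic triglyceride lipase, had 0.01 and 0 TPM. In replicate 1 the order was thus Amy1, Ctrb1, Cela1, Pnliprp1, Amy2a5, Cela2a, Prss2, Cpa1, Cel and Pnlip, and in replicate 2 the 4 shared genes filled the first 4 places. Among neighbours in the order of the means, Ctrb1 and Cela1 changed places between libraries, as did Prss2 and Cpa1. Cel and Pnlip were both listed at 0 in replicate 2. The other neighbours kept their order in both libraries. Only for Amy1 over Ctrb1 and Cela1 over Pnliprp1 did the values not overlap across libraries. Summed, the 4 shared genes had 86.3 and 80.3 TPM and the other 6 had 51.0 and 0.740 TPM.

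**Figure D1:**
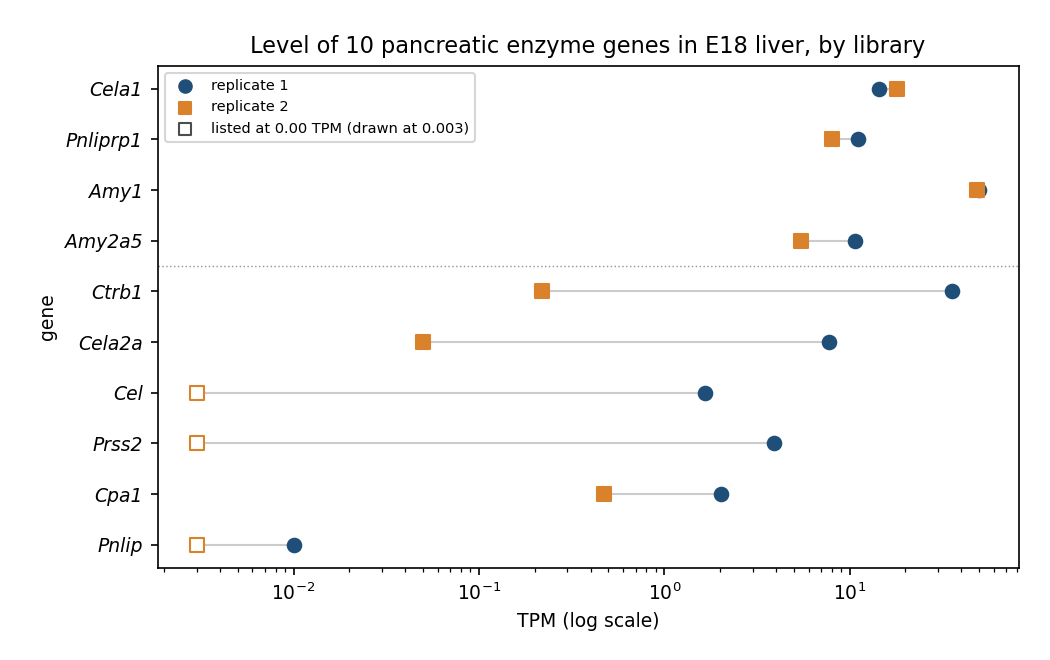
TPM of each gene (log scale) in replicate 1 (blue circles) and replicate 2 (orange squares), with open markers for values listed at 0.00. The 4 genes above the dotted line lie between 5.48 and 50.09 TPM in both libraries. Of the 6 below it, 5 are lower in replicate 2. Pnlip, with 1 and 0 counts, is too low in both libraries to compare.

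Cela1 (chromosome 15, 100674421 to 100687921 on mm10) had 1977 expected counts in replicate 1 and 2050 in replicate 2. After scaling, replicate 2 stood at 1.16 times replicate 1 (95% counting interval 1.09 to 1.24), a log2 ratio of 0.22. Its scaled level was thus slightly higher in the library in which Ctrb1 was nearly absent. Pnliprp1 (chromosome 19, 58728887 to 58744169) had 2434 and 1451 counts and a ratio of 0.669 (0.626 to 0.714), a log2 ratio of -0.58. Amy1 (chromosome 3, 113555710 to 113606699) had 12095 and 9651 counts and a ratio of 0.895 (0.871 to 0.919), a log2 ratio of -0.16. These values depend on the scaling: spike-in totals moved the median of all genes tested by 0.54, which put Amy1 at 0.38, Pnliprp1 at -0.04 and Cela1 at 0.75. Relative to the all-gene median, Amy1 remained at -0.16, Pnliprp1 at -0.58 and Cela1 at 0.22 under that scaling. The counting intervals of the 3 genes do not overlap one another, but 2 libraries give no measure of how much such genes vary between litters.

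The Amy2a5 value cannot be read as that gene's own. Amy2a5 (chromosome 3, 113247178 to 113258837) was assigned 2511.13 counts in replicate 1 and 1055.64 in replicate 2, a ratio of 0.472 and a log2 ratio of -1.08. The neighbouring copy Amy2a4 was assigned the same 2511.13 and 1055.64 counts, Amy2a3 2511.30 and 2311.78, and Amy2a2 1250.86 and 1055.64. In the GENCODE M21 annotation the transcripts of Amy2a2, Amy2a3 and Amy2a4 are identical over 3717 nt. That of Amy2a5 matches them at 98.5% of 3713 aligned positions. The Amy2a5 transcript that was counted has 1717 nt, so this percentage also covers bases outside the counted form. The deposited posterior SD, which measures how freely the counting could move reads between copies, was 1366 counts for Amy2a5 in replicate 1 around a posterior mean of 2151, and 1047 around 1678 in replicate 2. On the posterior means the Amy2a5 log2 ratio was -0.19 in place of -1.08. Amy1 was unlike these copies, with a posterior SD of 11.3 and 11.5 counts, and its main transcript matched Amy2a5 at 86.7% of 1710 aligned positions.

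The sum over the 4 copies is the firmer amylase value. Amy2a2 to Amy2a5 together had 8784 and 5479 counts, a ratio of 0.700 (0.676 to 0.724) and a log2 ratio of -0.52. Their summed level was 37.6 and 28.4 TPM, below Amy1 in both libraries. Amy2a1, a shorter copy, was at 0 in both, and Amy2b, annotated as a pseudogene, had 18.58 and 6.29 counts. The pancreatic-type amylase copies thus had 5479 counts in replicate 2, where Ctrb1, Cela2a, Cel and Prss2 each had under 20 counts.

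**Figure D2:**
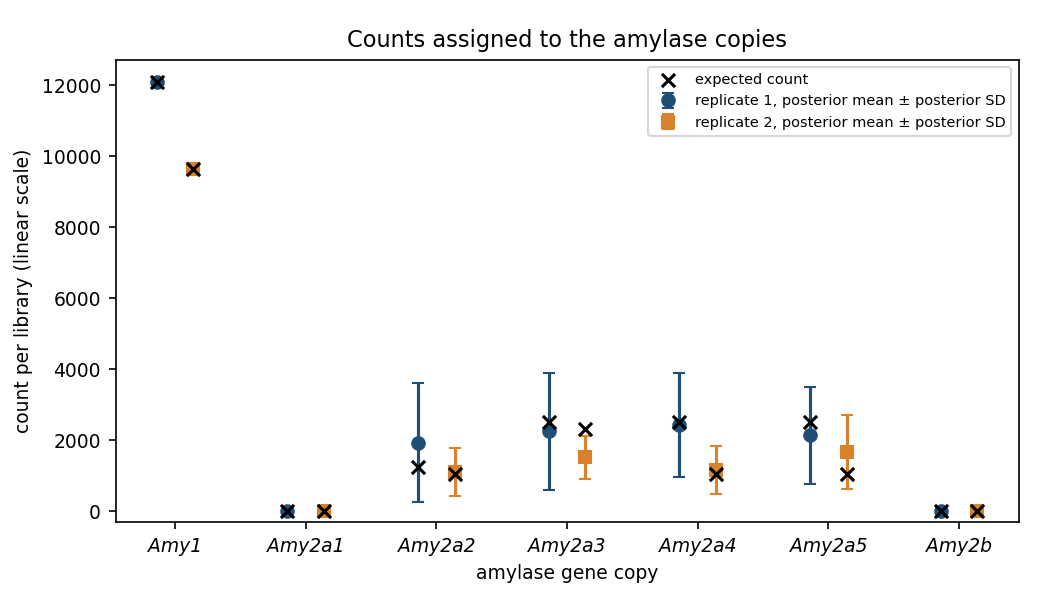
Counts assigned to each amylase copy in replicate 1 (blue circles) and replicate 2 (orange squares); points are posterior means with bars of 1 posterior SD, and crosses are expected counts (linear scale). The bars of Amy2a2 to Amy2a5 overlap one another and both libraries, while those of Amy1 are too small to see, at 11.3 and 11.5 counts.

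Of the 10 members, 9 had a mean count of at least 10 and 6 of these were at least 2-fold lower in replicate 2, where 3.19% of the 17616 genes tested were; none was at least 2-fold higher, against 1.21% of all. Since this difference chose the genes, nothing is read from the count. It falls to 5 of 9 when the sum of the 4 Amy2a copies stands in for Amy2a5. The median log2 ratio was -0.37 for the 4 shared genes and -7.42 for the 5 library-specific genes that could be counted (-6.87 with values under 3 counts set at 3), beside -0.0032 over all genes tested.

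Ctrb1 (chromosome 8, 111686519 to 111691010) had 3729 counts in replicate 1 and 19 in replicate 2. It was 175-fold lower there, with a counting interval of 112 to 291. Cela2a (chromosome 4, 141814962 to 141826160) had 984 and 5 counts and was 175-fold lower, with an interval of 74.9 to 542. Cel (chromosome 2, 28555795 to 28563403) had 456 and 1, which gives 407-fold with an interval of 72.6 to 16095. The intervals of these 3 genes overlap, and the 1 Cel count in replicate 2 lies under the limit of 3 counts used here. Prss2 (chromosome 6, 41521787 to 41525079) had 365 and 0 counts, and the counting interval of its fold starts at 87.8. It was 108-fold lower against a limit of 3 counts per library. Pnlip (chromosome 19, 58652498 to 58681788) had 1 and 0 counts, under that limit in both libraries, so no fold is given. It lies on the same strand just before Pnliprp1, which had 2434 and 1451.

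Cpa1 (chromosome 6, 30639218 to 30645363) stood between the groups. With 395 and 69 counts it was 5.10-fold lower in replicate 2, and its interval of 3.94 to 6.69 lies apart from those of Ctrb1, Cela2a and Cel. The mix of enzymes thus differed as well as the amount. Cela2a stood at 0.216 of the Ctrb1 level in TPM in replicate 1 and at 0.227 in replicate 2, the latter from 5 and 19 counts. Cpa1 stood at 0.0569 of the Ctrb1 level in replicate 1 and at 2.14 times it in replicate 2. The elastase genes parted further, with Cela1 at 1.86 times the Cela2a level in replicate 1 and 362 times in replicate 2. Among all genes tested, Prss2 ranked 2 from the lowest log2 ratio, and Cel, Ctrb1 and Cela2a ranked 6, 9 and 10 from the lowest. Cpa1 ranked 84, Amy2a5 480, Pnliprp1 1262, Amy1 4544 and Cela1 14523. The genes were chosen by this same difference, so nothing is read from their ranks. The log2 ratios of Prss2 and Cel also depend on the count added. Other added counts put Prss2 between -11.8 and -8.44 and Cel between -8.54 and -7.71. In bulk tissue, fewer cells of a type and less RNA per cell cannot be told apart. The Xist and Y-linked counts differed between the same libraries, so sex and library cannot be told apart in any ratio here either.

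**Figure D3:**
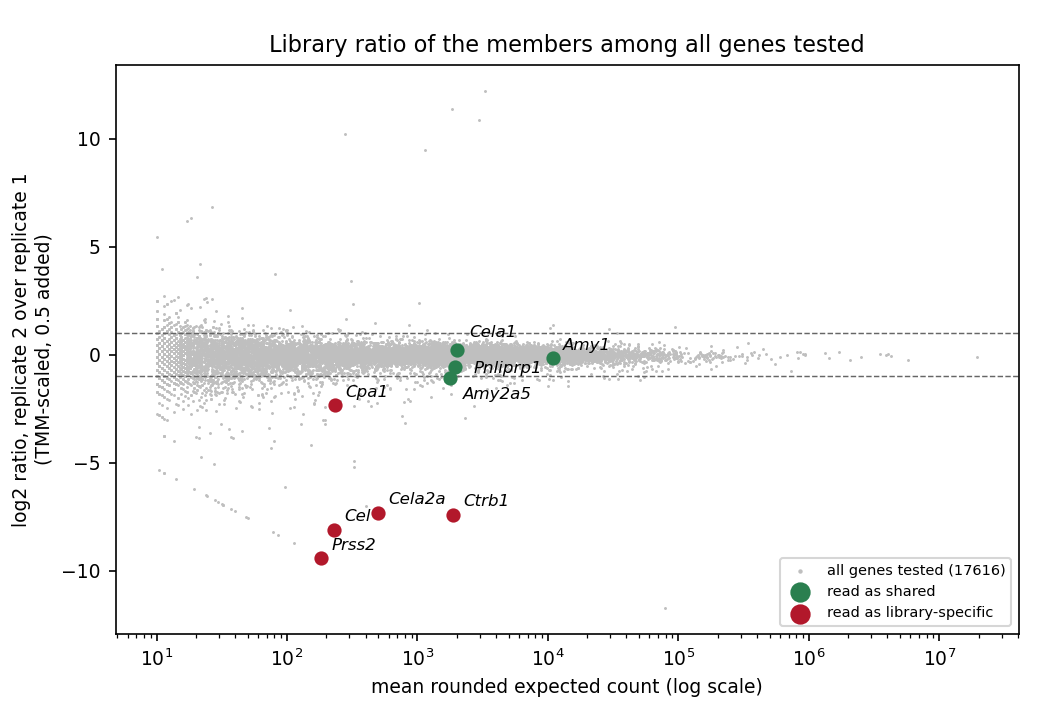
Log2 ratio of replicate 2 over replicate 1 against mean count (log scale) for the 17616 genes tested (grey), with 4 shared (green) and 5 library-specific (red) members named and dashed lines at 2-fold. Cela1 lies at 0.22 and Ctrb1 at -7.42 at nearly the same mean count; the positions of Prss2 and Cel, with 0 and 1 counts in replicate 2, depend on the 0.5 added.

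The junction list, made on the mm9 build with reads given separately for replicates 1 and 2, counted the same genes from spliced reads. It held 125662357 and 105325114 reads in all. Ctrb1 had 3702 and 21 reads, Cela2a 1223 and 12, Cel 329 and 2, Prss2 298 and 0, Cpa1 445 and 80, and Pnlip 3 and 0. Pnliprp1 had 3134 and 1872 reads and Amy1 10575 and 8510, of which 99.7% and 99.6% lay in annotated introns. Their reads were thus those of spliced RNA along the whole gene: all 12 annotated Pnliprp1 introns had reads in both libraries, from 131 to 394 in replicate 1 and from 91 to 247 in replicate 2. All 9 Cpa1 introns had reads in both as well, from 26 to 77 and from 4 to 14. In Ctrb1 the 6 introns from the 5′ end had 436, 302, 518, 681, 916 and 835 reads in replicate 1, and 0, 0, 1, 11, 6 and 3 in replicate 2. Prss2 had 58, 113, 86 and 40 reads over its 4 introns in replicate 1.

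Cela1 was uneven along its length. From the 5′ end its 7 introns had 35, 190, 625, 437, 317, 370 and 470 reads in replicate 1 and 14, 180, 764, 529, 325, 353 and 436 in replicate 2. The first intron thus had 8.67% and 3.55% of the median of the other 6, where the first intron of Ctrb1 had 64.0% in replicate 1, that of Cpa1 50.5% and 47.6%, and that of Pnliprp1 160% and 164%. The Cel first intron was also low in replicate 1, at 6 reads and 27.3%. The library ratio, scaled by total junction reads, differed along Cela1 too. Replicate 2 stood at 0.477 of replicate 1 in the first intron (counting interval 0.237 to 0.910) and at 1.28 (1.21 to 1.35) over the other 6. This was not particular to Cela1. In Pnliprp1 the ratio ran from 0.539 (0.449 to 0.645) in intron 11 to 1.11 (0.913 to 1.36) in intron 3. Along the liver-type Amy1 transcript it ran from 0.830 (0.768 to 0.897) to 1.15 (1.06 to 1.26). Annotated introns took 96.4% of the Cela1 reads, and 5 other junctions had at least 10 reads. The most used joined position 100511720 to 100512224 of chromosome 15 (mm9), within the fifth annotated intron, with 31 and 34 reads.

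**Figure D4:**
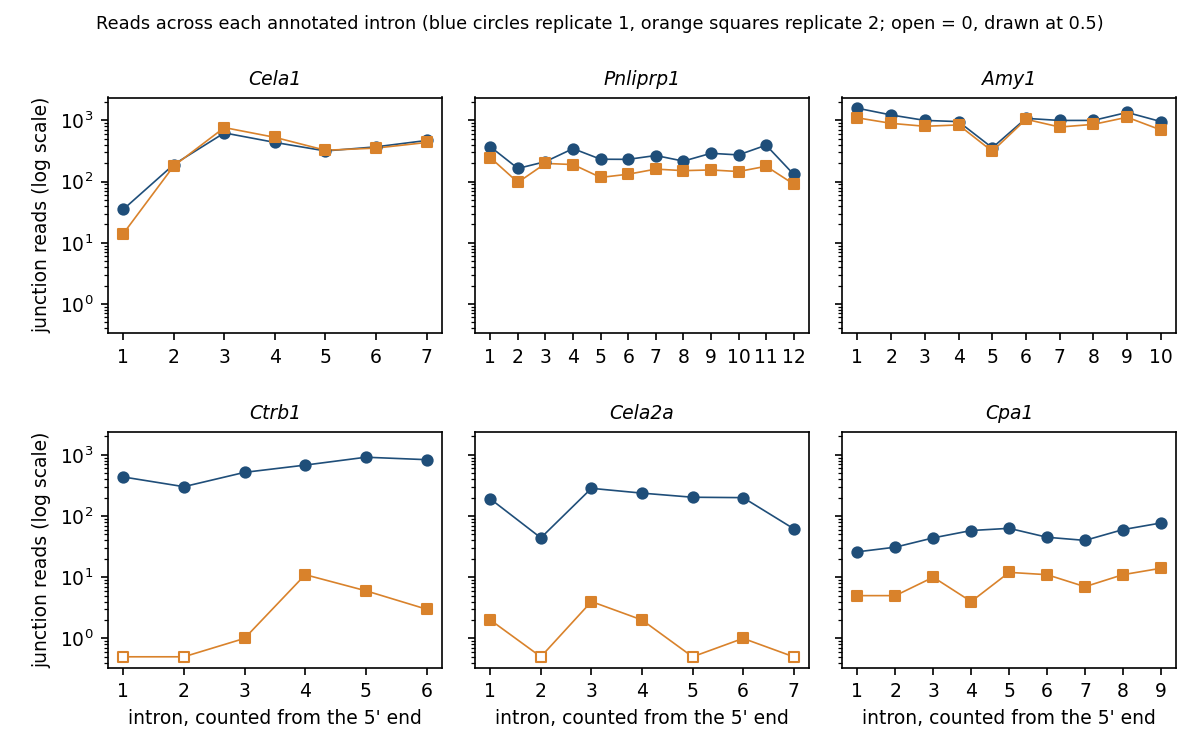
Reads across each annotated intron (log scale), counted from the 5′ end, in replicate 1 (blue circles) and replicate 2 (orange squares), with open markers for 0; for Amy1 the introns of the transcript with the liver-type first exon are shown. Replicate 2 lies far below replicate 1 in Ctrb1, Cela2a and Cpa1, and nearer to it in Pnliprp1, Amy1 and Cela1. The reads are not scaled to the library totals. In Pnliprp1 they are fewer in replicate 2 in all 12 introns, though the scaled ratio of intron 3 was 1.11. The first intron of Cela1 had 35 and 14 reads.

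By junction reads, Amy1 was read almost entirely from its liver-type start. The transcript from this start, Amy1-202, ends at its 5′ side at position 113574762 of chromosome 3 on mm10, next to the window printed above. Of the reads that join an annotated first exon to the shared second exon, 1584 of 1595 in replicate 1 and 1102 of 1112 in replicate 2 came from the first exon at 113277522 to 113277680 of chromosome 3 (mm9). That is 99.3% (exact binomial interval 98.8 to 99.7) and 99.1% (98.4 to 99.6). The first exon at 113277089 gave 8 and 8 reads and that at 113308490 gave 3 and 2. The first exon at 113280619 to 113280748, that of Amy1-201, gave 0 in both; 3 reads of the total, the limit used here, would be a share of 0.188% and 0.270%, and the upper ends of the exact binomial intervals are 0.231% and 0.331%. The intervals of the leading share overlap between the libraries. In the transcript shares of the mm10 tables Amy1-202 led as well, at 96.91% and 95.46% of Amy1, but Amy1-201 took 2.12% and 2.70%, above those limits. The mm9 exon table, whose RPKM values add up estimates for the transcripts that hold an exon, differed more. It gave 1.95 under field 1 and 0.680 under field 2 for the 2 listed forms of the exon at 113280619 together, and 2.81 and 5.75 for the liver-type exon; its fields run opposite to the replicate numbers for most genes that differ strongly. The difference between these measures was not tested.

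Cela1, Pnliprp1 and Ctrb1 had 1 transcript each in the deposited transcript tables, which fixes its share at 100%. Cela2a-201 took 94.32% in replicate 1 and Cel-201 94.73%, and both stood at 100% in replicate 2, where the genes had 5 and 1 counts. Cpa1-201 took 86.52% and 74.49% (80.5 ± 8.51, SD, n = 2), the rest going to Cpa1-202, whose share in replicate 2 rested on 7.6 of 69 counts. The Amy2a copies were nearly missing from the junction list. Amy2a5 had 67 and 20 junction reads, or 0.0267 and 0.0189 per expected count, where Amy1 had 0.874 and 0.882 and Cela1 1.29 and 1.31. Only 4 of its 9 annotated introns were listed, with 63 and 18 reads. Each of these 4 counts, to within 1 read, stood at 10 places, of which 4 lay within an Amy2a copy and 6 joined different copies. The ratio from these few reads, 0.341 (0.190 to 0.583), was lower than that of the summed counts, 0.700.

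The rest of the digestive enzyme genes, from lists chosen with earlier results of these data known, were mostly lower in replicate 2. Over all 17616 genes tested, 3.19% were at least 2-fold lower. The share was 1.47% at a mean count of at least 50, and so larger among genes of lower count. Of 9 other trypsinogen, chymotrypsinogen and elastase genes, 6 could be counted and all 6 were at least 2-fold lower. Their median log2 ratio was -6.90 (-4.27 with values under 3 counts set at 3). Of the 9, 7 were at 0 in replicate 2, and 2 of these in both libraries. Any gene at 0 in replicate 2 that could be counted, here or in the lists below, passed the filter only through replicate 1. Nothing is therefore read from the number of lower genes. The elastase gene Cela3b had 293 and 14 counts and the chymotrypsin-like gene Ctrl 79 and 27. Of the trypsinogen genes, Try5 (226 and 0) was 67.2-fold and Prss3 (156 and 0) 46.4-fold lower against the limit of 3 counts. The counting intervals of their folds start at 54.2 and 37.3. Of 6 other lipase, carboxypeptidase, nuclease and phospholipase genes, 5 could be counted and 4 were lower (median -3.54). Colipase (Clps), the partner of pancreatic lipase, had 637 and 18 counts, Cpb1 191 and 2 and Rnase1 84 and 6. The exception, Pnliprp2, named after its values were seen, had 35 in each library; it follows Pnliprp1 on chromosome 19.

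The lists of granule and transcription factor genes were divided, beside 3.19% of all genes tested that were at least 2-fold lower. Of 8 granule, inhibitor and lectin genes, 5 could be counted and 4 were lower (median -2.71, or -2.25 with values under 3 counts set at 3), among them the granule protein Sycn (135 and 18 counts) and the secreted lectin Reg1 (43 and 1). The exception was the trypsin inhibitor Spink1, at 7497 and 6837 counts, 233 and 268 TPM, and a ratio of 1.02 (0.990 to 1.06). Of 6 genes listed as acinar transcription factors, Foxa3, Gata4, Nr5a2 and Bhlha15 differed by less than 2-fold. Which cells held their RNA was not tested, so these 4 cannot stand for acinar cells. Ptf1a, named after its values were seen, was at 0 in both libraries. Rbpjl, named after its values were seen, had 48 and 3 counts, a ratio of 0.0701 (0.0140 to 0.217). Of 8 activators and inhibitors of digestive proteases, a list that also holds Spink1, 7 could be counted and none passed 2-fold (median -0.018). Relatives of the enzymes that work outside the pancreas did not pass 2-fold in any case either. All 6 other neutral lipases and all 6 other carboxypeptidases could be counted, with medians of -0.12 and -0.20.

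Markers of some other cell types differed between the libraries as well. Over all genes tested, 3.19% were at least 2-fold lower, a larger share among genes of low count, and 1.21% were at least 2-fold higher. Of 11 pancreatic endocrine genes, 6 could be counted and 5 were at least 2-fold lower in replicate 2 (median -2.77, or -2.53 with values under 3 counts set at 3); their summed level was 5.92 and 1.11 TPM. The insulin genes Ins2 (100 and 0 counts) and Ins1 (56 and 0) were at 0 in replicate 2, while Pyy (44 and 12) and Sst (39 and 15) were not. Chga, the exception, had 32 and 28 counts and a ratio of 0.981 (0.569 to 1.68), and Nkx6-1 was at 0 in both. Chga and Nkx6-1 were named after their values were seen. Of 7 duct genes, 0 were 2-fold lower and 1, Cftr, named after its values were seen, was higher (21 and 38 counts); the median was -0.39 and the summed level 104 and 78.3 TPM. Striated muscle genes were lower in 8 of 10 (median -2.0, summed level 30.3 and 23.9 TPM), with Acta1 at 748 and 126 counts and Tnnc1 the other way at 593 and 949. Gut epithelium genes were lower in 3 of 7 (median -0.18, summed level 487 and 537 TPM), with Fabp2 at 1401 and 513 counts. Alpi, at 170 and 0, and Sis, at 0 in both, were named after their values were seen. Salivary gland genes, which would mark the other site of Amy1 expression, were at 0 in both libraries for 7 of 8, with Aqp5 at 1 and 2 counts. Hepatocyte (8 genes, median 0.0018), erythroid (5, -0.14), neutrophil (8, 0.38; summed level 9128 and 13165 TPM) and adrenal genes (3, 0.14) held none beyond 2-fold. Of the lung and kidney genes, 1 could be counted, Sftpb, at 9 and 19. The part of other cell types in the members' differences was not tested.

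**Figure D5:**
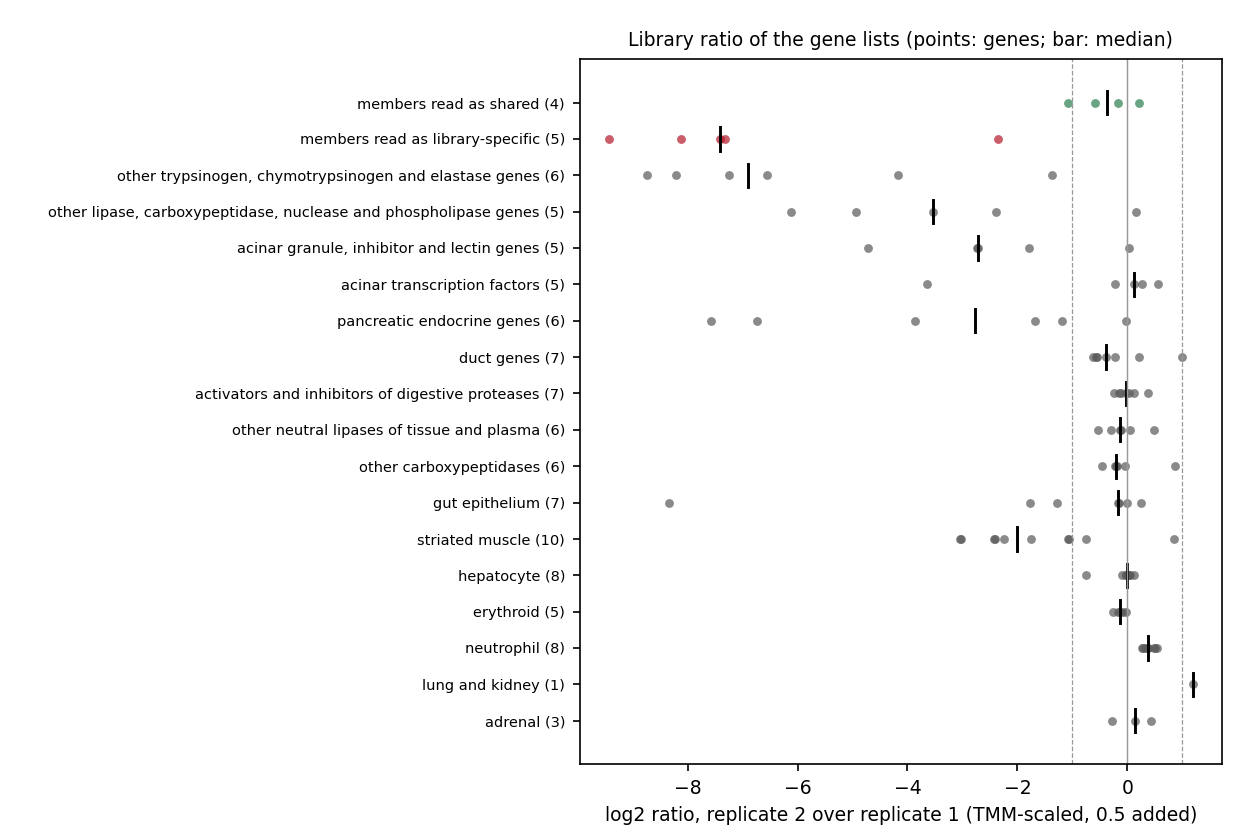
Log2 ratio of replicate 2 over replicate 1 for each gene with a mean count of at least 10, by list; points are genes, black bars medians, dashed lines 2-fold, and numbers in brackets the genes shown. The library-specific members and the other pancreatic enzyme, granule and endocrine lists reach below -2. So do the gut epithelium (lowest -8.33), acinar transcription factor (-3.64) and striated muscle (-3.03) lists. The shared members reach -1.08, and the hepatocyte and erythroid lists lie within 2-fold. Points of genes with under 3 counts depend on the 0.5 added.

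The mm9 gene table, which gives RPKM (reads scaled by gene length and library total) under fields numbered 1 and 2, ran the other way. Ctrb1 stood at 0.0411 under field 1 and 5.32 under field 2, Cela2a at 0.00851 and 1.28, Cel at 0.00174 and 0.324, Prss2 at 0 and 0.691 and Cpa1 at 0.0981 and 0.408. These 5 genes were all higher under field 2. Cela1 stood at 2.71 and 2.29, Amy1 at 5.17 and 7.02 and Pnliprp1 at 1.26 and 1.76, so the shared genes ran the other way as well. Over the whole table, 40 of 42 genes that differed at least 4-fold between the mm10 libraries at a mean count of at least 100 had the opposite order there. The junction list instead ran with the mm10 numbers for 37 of 40 of these genes with at least 10 junction reads. The replicate numbers above are those of the mm10 tables and the junction list, and the cause of the opposite order was not tested.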

How the data were processed

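Poly(A)+ RNA of 2 E18 liver libraries, biological replicates of 1 group, was analysed from gene and transcript tables. Per the file headers, the authors deposited expected counts, posterior mean counts with a posterior SD, TPM, FPKM and IsoPct (the percent of a gene's output assigned to each transcript) on mm10 identifiers, and, on mm9, RPKM and whole junction read counts. Which aligner and counter were used is not given in the sources used here. Row sums were 163766625 and 139889938 expected counts. The members, their split and the 20 gene lists were chosen with earlier results of these data known; every member is named, with up to 4 genes of each list by mean TPM (1 is not reported here), all amylase copies, and any other said to be named after its values were seen.

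Symbols were looked up by gene identifier for 42462 of 43346 mouse rows; 3 of 144 listed symbols were not found. Positions are from GENCODE M21 on mm10. Expected counts, rounded to integers, were scaled by TMM (edgeR 4.0.16, R 4.3.3), 0.5 was added and the log2 ratio of replicate 2 over replicate 1 taken. Genes with a mean count of at least 10 were tested against 2-fold. Ratios and folds printed with an interval use no added count. Their 95% intervals are exact conditional binomial (Clopper-Pearson) intervals; PCR reads without molecular identifiers are not independent molecules, so intervals and the limit of 3 counts cover counting error only. The script was tested on simulated data. Alternatives were DESeq2 1.42.0 size factors, mouse and spike-in totals, TPM and FPKM ratios, posterior means, other added counts and filters, and junction reads.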

Additional observations from a re-analysis of the deposited data

How the results depend on the processing

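The number of members at least 2-fold lower in replicate 2, 6 of 9, lay between 5 and 7 under the 13 alternatives tried, and the median of the library-specific genes between -7.44 and -6.81. The median of the shared genes, -0.37, moved to 0.17 with spike-in totals, -0.25 on TPM, -0.30 on FPKM, -0.18 on posterior mean counts and -0.27 on junction reads; for spike-in totals all genes moved with it, by 0.54, and the TPM ratio moved them by 0.11. The share of all genes at least 2-fold lower, 3.19%, was 5.72% with no filter on low counts, 1.47% at a mean count of 50 and 0.664% at 4-fold. Of 81 log2 ratios of single members under alternatives, 66 stayed inside their counting interval and 15 did not; 0 that were past 2-fold changed sign. Amy2a5 ranged from -1.47 on junction reads to -0.19 on posterior means, and Cela2a had 19 junction reads in replicate 2 on either strand and 12 on its own. Summing the Amy2a copies and setting values under 3 counts at 3 were chosen after the data were seen. The mm9 RPKM values are another unit and order and were set side by side only. Depth limits the calls for Prss2 and Cel in replicate 2 and for Pnlip in both, and 2 libraries of 1 group, with no batch named in the labels, give no spread between litters against which to judge a ratio.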
